A study of Drosophila melanogaster with 10 samples.

Results

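Aminoacyl-tRNA synthetases are the enzymes that load each amino acid onto its tRNA before the ribosome uses it. The genes were chosen by name, as protein-coding genes of the Ensembl annotation whose symbol joins a three-letter amino acid to RS, with or without the ending -m that marks the mitochondrial enzymes. This gave 35 of the 14292 genes in the expression table, 20 cytosolic and 15 mitochondrial. All 35 were among the 8722 genes that passed the filter on low values, and the lowest value of any of them in any library was 1.13 TPM, in ValRS-m.

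Both groups were midguts of adult Drosophila melanogaster males that carry Dredd D44/Y, a mutation of the caspase that passes the immune deficiency (IMD) signal on to the transcription factor Relish. The mex>PGRP-LE group carried mex-GAL4/UAS-PGRP-LE and the mex>+ group mex-GAL4/+. The mex driver acts in enterocytes, the absorptive cells of the midgut, and PGRP-LE is an intracellular receptor for bacterial peptidoglycan. Males were given yeast alone as food, kept at 25 °C with 12 h of light, and dissected 7 days after eclosion, with 20 midguts per RNA preparation. Each genotype had 5 polyA RNA libraries, described as biological replicates with nothing further on their origin, and the p-values below measure the spread among these libraries. The comparison asks what the receptor does to midgut transcripts when Dredd is mutated.

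Each synthetase recognises its amino acid and the tRNAs that belong to it, and hydrolyses ATP to join them. Animal cells make proteins in the cytosol and, separately, inside mitochondria, where a few subunits of the respiratory chain are made, and most amino acids therefore have a second, nuclear-encoded synthetase that is imported into mitochondria. The enzymes fall into class I and class II by the fold of their catalytic domain. In mammals a set of cytosolic synthetases is held together with scaffold proteins in a multisynthetase complex, and the others work as free enzymes.

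PGRP-LE itself stood at 4534 ± 295 TPM in mex>PGRP-LE and 38.2 ± 2.33 TPM in mex>+ (SD, n = 5 each), a log2 change of 6.85 ± 0.06 (limma SE, adjusted p = 1.58e-15). Transcripts of Dredd, mutated in both genotypes, also differed, at 33.0 ± 2.15 TPM in mex>PGRP-LE and 23.2 ± 2.01 TPM in mex>+, a log2 change of 0.49 ± 0.06 (limma SE, adjusted p = 3.43e-05). Levels are TPM, transcript abundances scaled to a fixed total per library, summed over the transcripts of a gene. Because TPM keep no record of read numbers, the depth of the libraries is unknown and no counting interval can be given. Log2 changes are mex>PGRP-LE minus mex>+ on log2(TPM + 1), which understates the change of genes at low levels. A gene is said to have risen or fallen when its limma adjusted p was under 0.05. Across all genes tested 62.9% passed this threshold, 40.1% higher and 22.8% lower, with a median log2 change of 0.09. After median-of-ratios rescaling, which centres the distribution near 0, that split was 2753 higher and 2717 lower, in place of 3499 higher and 1991 lower.

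Most cytosolic synthetase transcripts were higher in mex>PGRP-LE midguts. Of the 20 cytosolic genes 15 rose (75.0%, against 40.1% of all genes) and 0 fell, with a median log2 change of 0.32. Their summed level was 837 ± 45.8 TPM in mex>PGRP-LE and 628 ± 28.5 TPM in mex>+ (SD, n = 5 each). The sums ran from 779.5 to 904 TPM in mex>PGRP-LE and from 596 to 673 TPM in mex>+, so the groups did not overlap. In 14 of the 20 genes every mex>PGRP-LE library was above every mex>+ library, which held for 31.3% of all genes tested. Since whole midguts were sequenced, more cells that express a gene and more RNA per cell cannot be told apart.

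The share of mitochondrial synthetase genes that rose was that of the background. Of the 15 genes 6 rose (40.0%, against 40.1% of all genes), 0 fell, and the median log2 change was 0.15. Their summed level was 126 ± 6.49 TPM in mex>PGRP-LE, with libraries from 118 to 132 TPM, and 115 ± 2.76 TPM in mex>+, with libraries from 110.3 to 117 TPM. In 4 of the 15 genes (ArgRS-m, MetRS-m, TrpRS-m and TyrRS-m) every mex>PGRP-LE library was above every mex>+ library. This held for 31.3% of all genes tested. The number that rose was 4 without mex>PGRP-LE replicate 3, mex>PGRP-LE replicate 5 or mex>+ replicate 5, and 5 to 7 without any other library. The difference between the 2 compartments is tested amino acid by amino acid further on.

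Markers of midgut cell types moved with the genotype. Of 11 tested markers of progenitors, the stem cells and enteroblasts of the gut, 10 rose (against 40.1% of all genes) and 0 fell, and their summed level was 114 to 140.3 TPM in mex>PGRP-LE and 42.0 to 54.9 TPM in mex>+. Of 7 enterocyte markers 5 rose (all genes 40.1%) and 2 fell (all genes 22.8%). Their sums were 3303 to 3638 TPM in mex>PGRP-LE and 2191 to 2696 TPM in mex>+. Tsp2A, Ssk and mesh had the largest log2 changes, at 0.97, 0.84 and 0.81. Myo31DF and Myo61F fell, at -0.40 and -0.105 (named after their values were seen). The tracheal sum was lower without overlap, at 17.4 to 21.3 TPM in mex>PGRP-LE and 23.3 to 27.4 TPM in mex>+. Of 4 tested tracheal markers 0 rose and 2 fell (all genes 22.8%). The neuronal sum was also lower without overlap, at 4.48 to 5.74 TPM in mex>PGRP-LE and 6.07 to 7.22 TPM in mex>+. Its 3 tested markers were mixed. There nSyb fell, from a mean of 3.21 TPM in mex>+ to 1.82 TPM in mex>PGRP-LE, Syt1 rose, and elav did not pass the threshold. The sums of enteroendocrine, visceral muscle, fat body, Malpighian tubule and haemocyte markers overlapped between the genotypes, although some single markers passed the threshold. Visceral muscle had 0 of 10 markers higher and 3 lower (all genes 40.1% and 22.8%). The Malpighian tubule list had 0 of 5 tested markers higher and 1 lower, with a median log2 change of -1.23. Among 11 enteroendocrine markers 2 rose and 1 fell. Fat body had 0 of 3 tested markers higher and 1 lower, and haemocytes 1 of 2 higher and 1 lower. Of the 8 testis markers 0 passed the filter, their sums stayed at or under 0.12 TPM in both genotypes, and Mst84Da, Mst84Db and Mst87F were at 0 in every library. The part of these cell types in the synthetase differences was not tested.

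**Figure D1:**
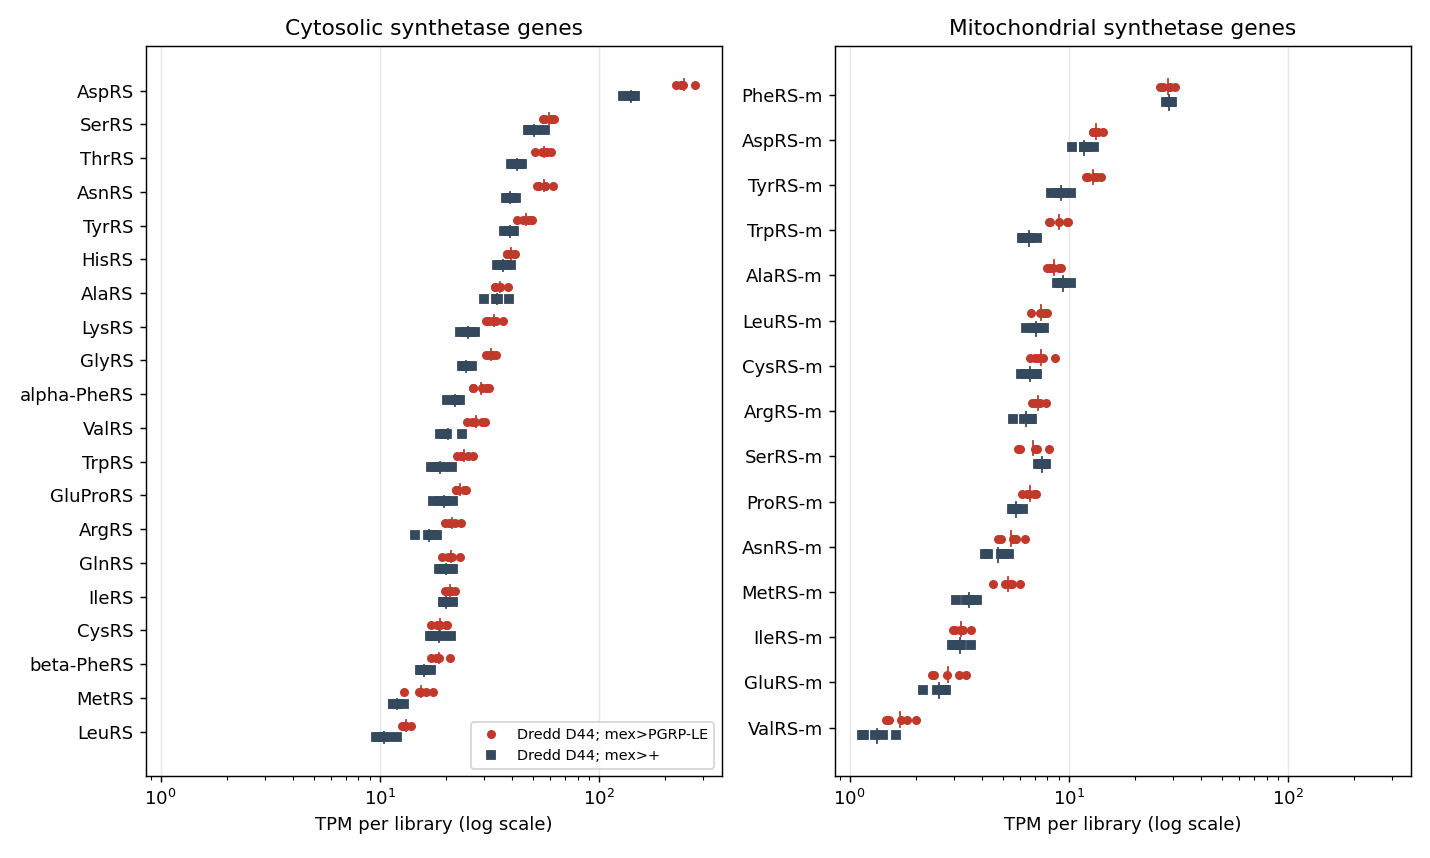
TPM of each synthetase gene in every library on a log axis, cytosolic genes in the left panel and mitochondrial genes in the right, with mex>PGRP-LE as red circles above mex>+ as dark squares and a short vertical line at each group mean. AspRS lies far to the right of the other cytosolic genes, and its mex>PGRP-LE libraries, at 225 to 276 TPM, are all above its mex>+ libraries, at 129 to 146 TPM.

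AspRS, which charges the aspartate tRNA, had both the highest level and the largest change of the 35 genes (FBgn0002069, chromosome arm 2R, 12877004 to 12883168, plus strand; BDGP6.54). It had 225, 237, 276, 241 and 243 TPM in the mex>PGRP-LE libraries, against 145, 146, 129, 144 and 138 TPM in the mex>+ libraries. Every mex>PGRP-LE value exceeded every mex>+ value. The means were 244 ± 19.0 TPM in mex>PGRP-LE and 141 ± 7.19 TPM in mex>+ (SD, n = 5 each), a ratio of 1.74, and the log2 change was 0.79 ± 0.06 (limma SE, adjusted p = 3.75e-07). Among all genes tested 6.35% had a larger positive log2 change. AspRS made up 29.2% ± 0.811 of the summed cytosolic synthetase TPM in mex>PGRP-LE and 22.4% ± 0.843 in mex>+. Without it 14 of the other 19 cytosolic genes rose, and their median log2 change was 0.30. In the next most abundant cytosolic gene, SerRS, the mean was 59.3 ± 2.87 TPM in mex>PGRP-LE and 50.8 ± 3.82 TPM in mex>+.

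Transcripts of several other class II enzymes of the cytosol rose. This class takes in the enzymes for asparagine, threonine, lysine, glycine, serine, histidine, alanine, aspartate and phenylalanine, and 8 of its 10 genes rose (80.0%, against 40.1% of all genes), with a median log2 change of 0.37. AsnRS, the asparaginyl enzyme, had 53.2, 52.0, 61.8, 56.7 and 57.0 TPM in the mex>PGRP-LE libraries, against 38.6, 39.1, 40.0, 41.9 and 37.8 TPM in the mex>+ libraries. Its groups did not overlap, and the log2 change was 0.50 ± 0.05 (limma SE, adjusted p = 6.20e-06). ThrRS, the threonyl enzyme, had 51.1, 55.3, 56.6, 57.7 and 60.5 TPM in the mex>PGRP-LE libraries, against 43.7, 41.8, 39.8, 44.7 and 40.8 TPM in the mex>+ libraries. Its lowest mex>PGRP-LE library lay above the highest mex>+ library, with a log2 change of 0.41 ± 0.05 (limma SE, adjusted p = 3.30e-05). LysRS, the lysyl enzyme, had 30.7, 31.6, 36.6, 32.9 and 33.95 TPM in the mex>PGRP-LE libraries, against 24.9, 23.2, 24.7, 27.3 and 26.3 TPM in the mex>+ libraries. Those groups were also apart, with a log2 change of 0.38 ± 0.06 (limma SE, adjusted p = 1.46e-04). GlyRS, the glycyl enzyme, averaged 32.2 ± 1.30 TPM in mex>PGRP-LE and 24.8 ± 0.986 TPM in mex>+, a log2 change of 0.37 ± 0.04 (limma SE, adjusted p = 1.93e-05).

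The phenylalanyl enzyme of the cytosol is built of alpha and beta subunits from separate genes, and both rose. The alpha subunit, alpha-PheRS, had 26.6, 30.6, 31.6, 26.7 and 29.4 TPM in the mex>PGRP-LE libraries, against 23.2, 22.3, 20.4, 22.6 and 22.4 TPM in the mex>+ libraries, a log2 change of 0.37 ± 0.06 (limma SE, adjusted p = 1.71e-04). The beta subunit, beta-PheRS, had 18.1, 18.3, 21.02, 17.1 and 18.6 TPM in the mex>PGRP-LE libraries, against 15.2, 15.4, 15.8, 17.1 and 16.3 TPM in the mex>+ libraries, a log2 change of 0.21 ± 0.06 (limma SE, adjusted p = 0.00738). Both genes had groups that did not overlap, but for beta-PheRS the lowest mex>PGRP-LE library exceeded the highest mex>+ library by a small margin, 17.13 against 17.11 TPM, and after median-of-ratios rescaling its log2 change was 0.11 (limma adjusted p = 0.0653). SerRS rose with a log2 change of 0.22 ± 0.06 (limma SE, adjusted p = 0.00487), although mex>PGRP-LE libraries at 55.8 to 62.2 TPM overlapped mex>+ libraries at 47.5 to 56.5 TPM. After the same rescaling SerRS had a log2 change of 0.12 (limma adjusted p = 0.0582).

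Of the 9 class I genes of the cytosol 6 rose (66.7%, against 40.1% of all genes), with a median log2 change of 0.30. ValRS, which charges the valine tRNA, had 25.1, 27.2, 30.1, 26.4 and 29.2 TPM in the mex>PGRP-LE libraries, against 20.3, 19.9, 18.9, 23.8 and 19.8 TPM in the mex>+ libraries. Its groups did not overlap and its log2 change was 0.41 ± 0.07 (limma SE, adjusted p = 2.33e-04). TrpRS, the tryptophanyl enzyme, averaged 24.3 ± 1.67 TPM in mex>PGRP-LE and 18.8 ± 1.71 TPM in mex>+, a log2 change of 0.36 ± 0.07 (limma SE, adjusted p = 5.80e-04). ArgRS, the arginyl enzyme, averaged 21.4 ± 1.37 TPM in mex>PGRP-LE and 16.8 ± 1.45 TPM in mex>+, a log2 change of 0.34 ± 0.07 (limma SE, adjusted p = 8.04e-04). MetRS, which charges both initiator and elongator methionine tRNAs, and LeuRS, the leucyl enzyme, had log2 changes of 0.33 ± 0.07 (limma SE, adjusted p = 0.00139) and 0.30 ± 0.06 (limma SE, adjusted p = 9.60e-04). LeuRS was the cytosolic gene of lowest level, at 13.1 ± 0.494 TPM in mex>PGRP-LE and 10.5 ± 0.992 TPM in mex>+. TyrRS, the tyrosyl enzyme, was higher by a smaller step, at 46.8 ± 2.97 TPM in mex>PGRP-LE and 39.2 ± 1.60 TPM in mex>+, a log2 change of 0.25 ± 0.05 (limma SE, adjusted p = 0.00133). All 6 had groups that did not overlap.

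GluProRS joins the glutamyl and the prolyl enzyme in 1 polypeptide and belongs to both classes. It had 22.3, 22.2, 24.7, 22.6 and 24.1 TPM in the mex>PGRP-LE libraries, against 18.8, 19.8, 17.5, 21.6 and 20.1 TPM in the mex>+ libraries. The groups were apart, and the log2 change was 0.24 ± 0.06 (limma SE, adjusted p = 0.00385).

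For 5 cytosolic genes the test found no difference at this replication. CysRS, the cysteinyl enzyme, averaged 18.9 ± 1.27 TPM in mex>PGRP-LE and 18.6 ± 1.64 TPM in mex>+, a log2 change of 0.03 ± 0.07 (limma SE, adjusted p = 0.735). AlaRS, the alanyl enzyme, averaged 35.3 ± 1.96 TPM in mex>PGRP-LE and 34.4 ± 3.15 TPM in mex>+, a log2 change of 0.04 ± 0.06 (limma SE, adjusted p = 0.624). IleRS and GlnRS, the isoleucyl and glutaminyl enzymes, had log2 changes of 0.06 ± 0.05 (limma SE, adjusted p = 0.304) and 0.06 ± 0.06 (limma SE, adjusted p = 0.388). HisRS, the histidyl enzyme, averaged 39.6 ± 1.56 TPM in mex>PGRP-LE and 36.5 ± 2.32 TPM in mex>+, a log2 change of 0.12 ± 0.05 (limma SE, adjusted p = 0.0652), and passed the threshold when mex>+ replicate 4 was left out (limma adjusted p = 0.0222). All 5 had overlapping groups. After median-of-ratios rescaling CysRS, AlaRS, IleRS and GlnRS had log2 changes below 0, at -0.07, -0.06, -0.04 and -0.04, none past the threshold.

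The cytosolic genes were also divided by the multisynthetase complex, as its members are known from mammals. Of the 8 genes whose products belong to it (AspRS, GluProRS, LysRS, ArgRS, MetRS, LeuRS, IleRS and GlnRS) 6 rose, with a median log2 change of 0.32. Of the 12 genes of free enzymes 9 rose, with a median of 0.30. That is 75.0% of each, against 40.1% of all genes. Summed levels were 393 ± 25.7 TPM in mex>PGRP-LE and 265 ± 11.3 TPM in mex>+ for the complex, a ratio of 1.48, and 444 ± 20.8 TPM in mex>PGRP-LE and 363 ± 17.9 TPM in mex>+ for the free enzymes, a ratio of 1.22. AspRS, with a ratio of 1.74, is among the genes of the complex. On average it held 244 of the 393 TPM in mex>PGRP-LE and 141 of the 265 TPM in mex>+. The difference between the 2 sets was not tested. Both groups held genes with little difference, IleRS and GlnRS in the complex and CysRS, AlaRS and HisRS among the free enzymes.

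Mex>+ replicate 4 was the highest library of its group for 17 of the 20 cytosolic genes, and mex>PGRP-LE replicate 3 was the highest of its group for 13 of the 20. Among mitochondrial genes no library was the highest for more than 5. When each of the 10 libraries was left out in turn, 15 or 16 cytosolic genes rose and 0 fell.

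**Figure D2:**
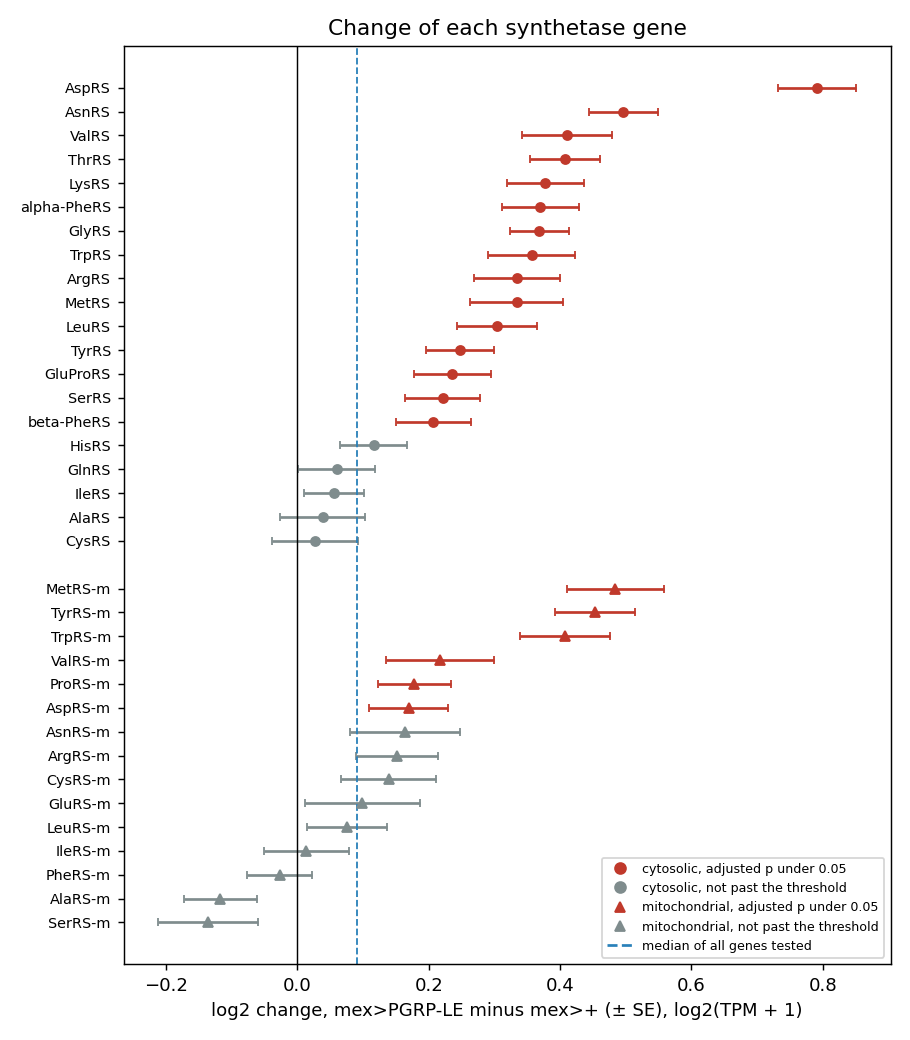
Log2 change of each synthetase gene with its SE, cytosolic genes as circles above and mitochondrial genes as triangles below, red where the limma adjusted p was under 0.05 and grey otherwise. The dashed line is the median of all genes tested, 0.09. Of the cytosolic genes 15 are red and lie between 0.21 and 0.79, whereas 6 mitochondrial genes are red and the lowest, SerRS-m, lies at -0.14.

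MetRS-m, TyrRS-m and TrpRS-m were the mitochondrial genes with the largest changes. MetRS-m, which charges the methionine tRNA that starts mitochondrial translation, had 5.51, 5.13, 4.51, 5.98 and 5.40 TPM in the mex>PGRP-LE libraries, against 3.53, 3.38, 3.82, 3.71 and 3.06 TPM in the mex>+ libraries. Every mex>PGRP-LE library was above every mex>+ library, and the log2 change was 0.48 ± 0.07 (limma SE, adjusted p = 1.27e-04). TyrRS-m, the mitochondrial tyrosyl enzyme, had 12.1, 14.0, 13.0, 12.3 and 13.5 TPM in the mex>PGRP-LE libraries, against 8.93, 8.32, 10.2, 9.48 and 9.04 TPM in the mex>+ libraries. Its groups were apart as well, with a log2 change of 0.45 ± 0.06 (limma SE, adjusted p = 4.72e-05). TrpRS-m, the tryptophanyl enzyme, had 8.12, 9.93, 9.87, 8.22 and 9.04 TPM in the mex>PGRP-LE libraries, against 6.15, 6.17, 6.65, 7.19 and 6.62 TPM in the mex>+ libraries. The lowest mex>PGRP-LE library exceeded the highest mex>+ library, and the log2 change was 0.41 ± 0.07 (limma SE, adjusted p = 2.52e-04). All 3 are class I enzymes, as are 9 of the 15 mitochondrial genes, of which 4 rose (44.4%, against 40.1% of all genes).

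The other mitochondrial genes past the threshold changed less, and their groups overlapped. AspRS-m averaged 13.4 ± 0.636 TPM in mex>PGRP-LE and 11.8 ± 0.973 TPM in mex>+, a log2 change of 0.17 ± 0.06 (limma SE, adjusted p = 0.0268). ProRS-m averaged 6.65 ± 0.408 TPM in mex>PGRP-LE and 5.76 ± 0.292 TPM in mex>+, a log2 change of 0.18 ± 0.06 (limma SE, adjusted p = 0.0149). ValRS-m, the synthetase of lowest level in the midgut, averaged 1.71 ± 0.224 TPM in mex>PGRP-LE and 1.33 ± 0.204 TPM in mex>+, a log2 change of 0.22 ± 0.08 (limma SE, adjusted p = 0.0373). These calls were less firm than those of MetRS-m, TyrRS-m and TrpRS-m. ValRS-m missed the threshold in 6 of the 10 fits that leave out a library (mex>PGRP-LE replicates 2, 3 and 5 and mex>+ replicates 3, 4 and 5; limma adjusted p between 0.0625 and 0.0898), and AspRS-m in 3 of them (mex>PGRP-LE replicates 3 and 5 and mex>+ replicate 5; 0.0524 to 0.0657). All 3 missed it after median-of-ratios rescaling.

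For the remaining 9 mitochondrial genes the test found no difference. ArgRS-m came closest, at 6.81, 7.85, 6.93, 7.42 and 7.13 TPM in the mex>PGRP-LE libraries, against 6.72, 6.25, 6.77, 6.74 and 5.59 TPM in the mex>+ libraries. Its groups did not overlap, but the gap between the neighbouring libraries was narrow, and the log2 change was 0.15 ± 0.06 (limma SE, adjusted p = 0.0505). It passed the threshold without mex>PGRP-LE replicate 1, mex>+ replicate 3 or mex>+ replicate 4 (limma adjusted p = 0.0461, 0.0498 and 0.0469). PheRS-m, a single-chain enzyme and the most abundant mitochondrial synthetase, averaged 28.2 ± 1.79 TPM in mex>PGRP-LE and 28.8 ± 0.721 TPM in mex>+, a log2 change of -0.03 ± 0.05 (limma SE, adjusted p = 0.648). SerRS-m and AlaRS-m were lower on average, with log2 changes of -0.14 ± 0.08 (limma SE, adjusted p = 0.14) and -0.12 ± 0.06 (limma SE, adjusted p = 0.084). Without mex>PGRP-LE replicate 3 SerRS-m passed the threshold as lower, at -0.19 (limma adjusted p = 0.0266). AsnRS-m, CysRS-m, GluRS-m, LeuRS-m and IleRS-m had log2 changes of 0.16, 0.14, 0.10, 0.08 and 0.01, with limma adjusted p between 0.106 and 0.869. After median-of-ratios rescaling AlaRS-m, PheRS-m and SerRS-m passed the threshold as lower, with log2 changes of -0.21, -0.13 and -0.23.

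In TPM, which are per length, mitochondrial genes were lower at the median, with overlapping ranges. The median cytosolic gene stood at 28.3 TPM in mex>PGRP-LE and 21.3 TPM in mex>+, and the median mitochondrial gene at 7.23 TPM in mex>PGRP-LE and 6.56 TPM in mex>+. Cytosolic means ran from LeuRS to AspRS, and mitochondrial means from ValRS-m to PheRS-m. AspRS-m was second among the mitochondrial genes, so in each compartment the aspartyl enzyme was among the 2 most abundant.

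For 12 amino acids the genes included exactly 1 cytosolic and 1 mitochondrial enzyme, and the ratio of the 2 within a library was compared between the genotypes. Such a ratio does not depend on how a library is scaled, apart from the pseudocount. For aspartate the log2 ratio of AspRS to AspRS-m was 4.00, 4.10, 4.17, 4.13 and 4.06 in the mex>PGRP-LE libraries, against 3.48, 3.54, 3.35, 3.38 and 3.62 in the mex>+ libraries. The groups did not overlap, with means of 4.09 ± 0.07 in mex>PGRP-LE and 3.47 ± 0.11 in mex>+ (SD, n = 5 each). As plain TPM ratios the means were 18.3 ± 0.816 in mex>PGRP-LE and 12.0 ± 0.986 in mex>+. The difference of 0.62 had an exact permutation p = 0.00794, the smallest that 5 against 5 allows, and an adjusted p = 0.0317 over the 12 pairs.

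The serine and asparagine pairs moved the same way with the same exact and adjusted p. The log2 ratio of SerRS to SerRS-m was 3.02, 2.85, 2.77, 3.20 and 2.92 in the mex>PGRP-LE libraries, against 2.71, 2.44, 2.58, 2.73 and 2.51 in the mex>+ libraries. The groups did not overlap and their means differed by 0.36. The log2 ratio of AsnRS to AsnRS-m was 3.24, 3.02, 3.23, 3.29 and 2.99 in the mex>PGRP-LE libraries, against 2.94, 2.66, 2.95, 2.83 and 2.72 in the mex>+ libraries. The lowest mex>PGRP-LE ratio was slightly above the highest mex>+ ratio, and the means differed by 0.33. All 3 of these amino acids are charged by class II enzymes in both compartments. So is alanine, whose pair did not pass, at 0.16 (exact permutation test, adjusted p = 0.0952). With 1 library left out, 4 against 5 allows no exact p below 0.0159, and 3 pairs at that p have an adjusted p of 0.0635. All 3 pairs missed the threshold in this way without any one of mex>PGRP-LE replicates 1, 3, 4 and 5 or mex>+ replicates 1, 2 and 5, while the differences stayed at 0.60 to 0.66 for aspartate. Without mex>PGRP-LE replicate 2 or mex>+ replicate 4, 5 pairs shifted towards the cytosolic enzyme, and without mex>+ replicate 3 these were 3.

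With all 10 libraries no pair passed the threshold towards the mitochondrial enzyme, and 8 of the 12 differences were positive. The tyrosine pair had the largest difference in that direction. The log2 ratio of TyrRS to TyrRS-m was 1.83, 1.69, 1.84, 1.71 and 1.80 in the mex>PGRP-LE libraries, against 2.06, 2.17, 1.82, 1.94 and 1.92 in the mex>+ libraries. The difference was -0.21 (exact permutation p = 0.0238, adjusted p = 0.0571), and 1 mex>+ library fell within the range of mex>PGRP-LE. Without mex>+ replicate 3 it was -0.25 (exact permutation test, adjusted p = 0.0476). Methionine, cysteine and tryptophan had differences of -0.15, -0.11 and -0.05, with exact adjusted p between 0.349 and 0.45. Leucine, valine, arginine, alanine and isoleucine had differences of 0.23, 0.19, 0.18, 0.16 and 0.04, with exact adjusted p between 0.0571 and 0.492.

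**Figure D3:**
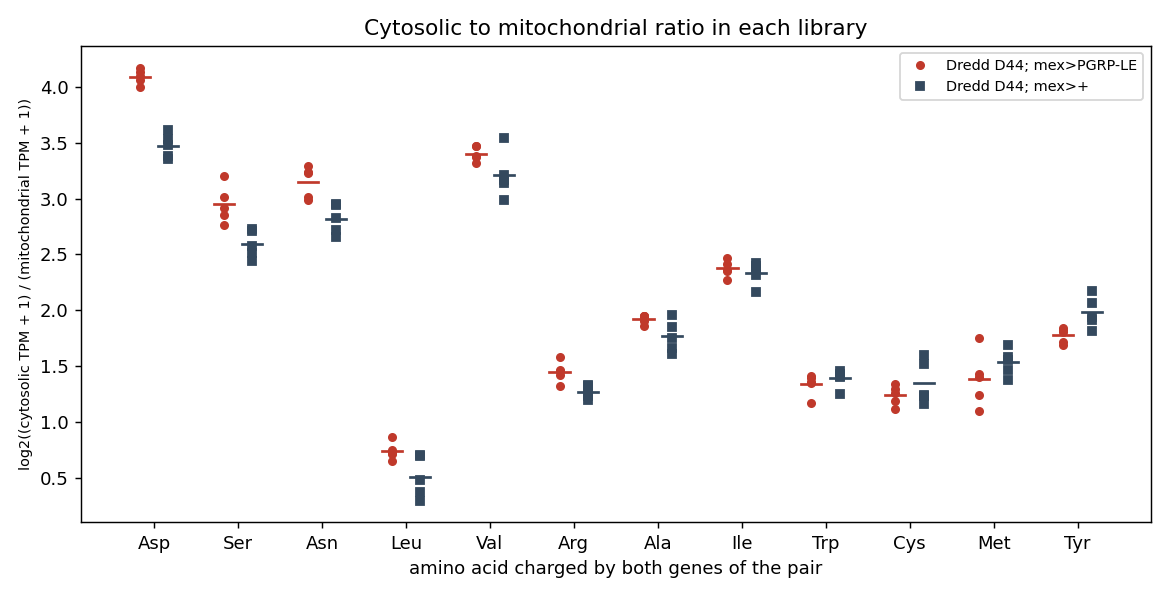
Log2 ratio of the cytosolic to the mitochondrial synthetase of the same amino acid in each library, from (TPM + 1) values, with mex>PGRP-LE as red circles left of mex>+ as dark squares and a line at each group mean, ordered by the difference of the means. The aspartate, serine and asparagine pairs have groups that do not overlap, with differences of 0.62, 0.36 and 0.33, and the tyrosine pair is the lowest at -0.21.

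Glutamine, glycine, histidine, lysine and threonine had a cytosolic gene but no -m gene. In mammals single genes for the glycyl and lysyl enzymes serve both compartments through proteins that differ at the amino end, and mitochondrial glutaminyl-tRNA is made by amidation of glutamyl-tRNA. Of these 5 genes 3 rose (ThrRS, LysRS and GlyRS; 60.0%, against 40.1% of all genes), with a median log2 change of 0.37. Transcripts that encode the longer GlyRS protein, of 765 codons, held 10.5% ± 2.48 of GlyRS TPM in mex>PGRP-LE and 9.04% ± 3.79 in mex>+, and the 679-codon form held the rest. For LysRS the 607-codon form held 7.29% ± 1.38 in mex>PGRP-LE and 7.67% ± 1.69 in mex>+, beside a 574-codon form. The shares of the longer forms were minor and the groups overlapped in both genes. For ThrRS the 747-codon form stood at 5.996 ± 0.667 TPM in mex>PGRP-LE and 6.05 ± 1.31 TPM in mex>+, whereas the 690-codon form stood at 50.3 ± 3.46 TPM in mex>PGRP-LE and 36.1 ± 3.33 TPM in mex>+. The difference in ThrRS TPM was thus assigned to transcripts of the shorter form. The share of the 747-codon form still overlapped, at 9.45% to 12.6% in mex>PGRP-LE and 9.65% to 19.5% in mex>+.

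The 35 genes have 66 annotated transcripts, all present in the table, and 20 genes have more than 1. The share of the leading transcript was compared in the 14 genes with at least 2 transcripts at 10% or more of the gene, and it changed in 4 of them, AspRS, ValRS, CysRS-m and GluProRS. Each of the 4 had an exact permutation p = 0.00794 and an adjusted p = 0.0278 over the 14 genes. With 1 library left out the smallest exact p gave 4 genes an adjusted p of 0.0556, so none passed without any one of the 5 mex>PGRP-LE libraries or mex>+ replicates 1, 2, 3 and 5. Without mex>+ replicate 4 there were 5, ThrRS being the other (exact permutation test, adjusted p = 0.0444). Transcripts of a gene share most of their sequence, so their TPM are estimates of how shared reads divide.

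AspRS-RA held 48.9, 45.0, 42.8, 42.4 and 46.1% of AspRS TPM in the mex>PGRP-LE libraries, against 61.7, 63.3, 68.3, 56.9 and 65.1% in the mex>+ libraries. The ranges were well apart. AspRS-RC, which starts 148 bases downstream of AspRS-RA and encodes the same 531 codons, stood at 126 ± 14.95 TPM in mex>PGRP-LE and 47.2 ± 8.23 TPM in mex>+. AspRS-RA stood at 109.9 ± 5.92 TPM in mex>PGRP-LE and 88.6 ± 3.89 TPM in mex>+. Most of the difference in AspRS TPM was therefore assigned to AspRS-RC. The third transcript, AspRS-RB, starts 3280 bases upstream and stood at 8.77 ± 1.17 TPM in mex>PGRP-LE and 4.89 ± 1.13 TPM in mex>+.

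In ValRS the transcripts also start close together. ValRS-RB held 43.6, 46.6, 33.1, 39.6 and 50.9% of ValRS TPM in the mex>PGRP-LE libraries, against 58.5, 61.3, 65.3, 64.3 and 59.3% in the mex>+ libraries. ValRS-RA, which starts 90 bases downstream and encodes the same 1049 codons, stood at 14.8 ± 2.73 TPM in mex>PGRP-LE and 7.39 ± 0.706 TPM in mex>+. For ValRS-RB itself the libraries overlapped, at 11.8 ± 1.995 TPM in mex>PGRP-LE and 12.7 ± 1.48 TPM in mex>+.

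CysRS-m did not pass the test as a gene, at 0.14 on the log2 scale (limma adjusted p = 0.111), but the shares of its transcripts differed. CysRS-m-RB held 61.5, 57.0, 81.3, 73.4 and 81.9% of CysRS-m TPM in the mex>PGRP-LE libraries, against 22.9, 52.3, 34.1, 45.5 and 24.3% in the mex>+ libraries. The groups did not overlap although the libraries of each scattered widely. CysRS-m-RB ends 295 bases further downstream than CysRS-m-RA and encodes the same 558 codons. It stood at 5.26 ± 0.807 TPM in mex>PGRP-LE and 2.38 ± 0.863 TPM in mex>+, and CysRS-m-RA at 2.19 ± 1.02 TPM in mex>PGRP-LE and 4.28 ± 0.939 TPM in mex>+. The gene CG13016 on the opposite strand overlaps 14.3% of the CysRS-m exon bases and was itself higher, at 9.61 TPM in mex>PGRP-LE and 8.12 TPM in mex>+. Its part in the CysRS-m shares was not tested.

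In GluProRS the transcripts encode proteins of different length. GluProRS-RA, of 1714 codons, held 46.6, 53.8, 52.9, 45.8 and 49.2% of the gene in the mex>PGRP-LE libraries, against 55.6, 54.3, 59.0, 57.8 and 57.5% in the mex>+ libraries. GluProRS-RB, of 996 codons, starts 2892 bases downstream and ends at the same base. It stood at 11.7 ± 0.819 TPM in mex>PGRP-LE and 8.45 ± 0.78 TPM in mex>+, whereas the long transcript stood at 11.5 ± 1.17 TPM in mex>PGRP-LE and 11.1 ± 0.901 TPM in mex>+. The difference in GluProRS TPM was thus assigned mainly to the short transcript. An antisense gene, asRNA:CR46092, covers 16.6% of GluProRS exon bases. No transcript row was assigned to it, and its part in these values was not tested.

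**Figure D4:**
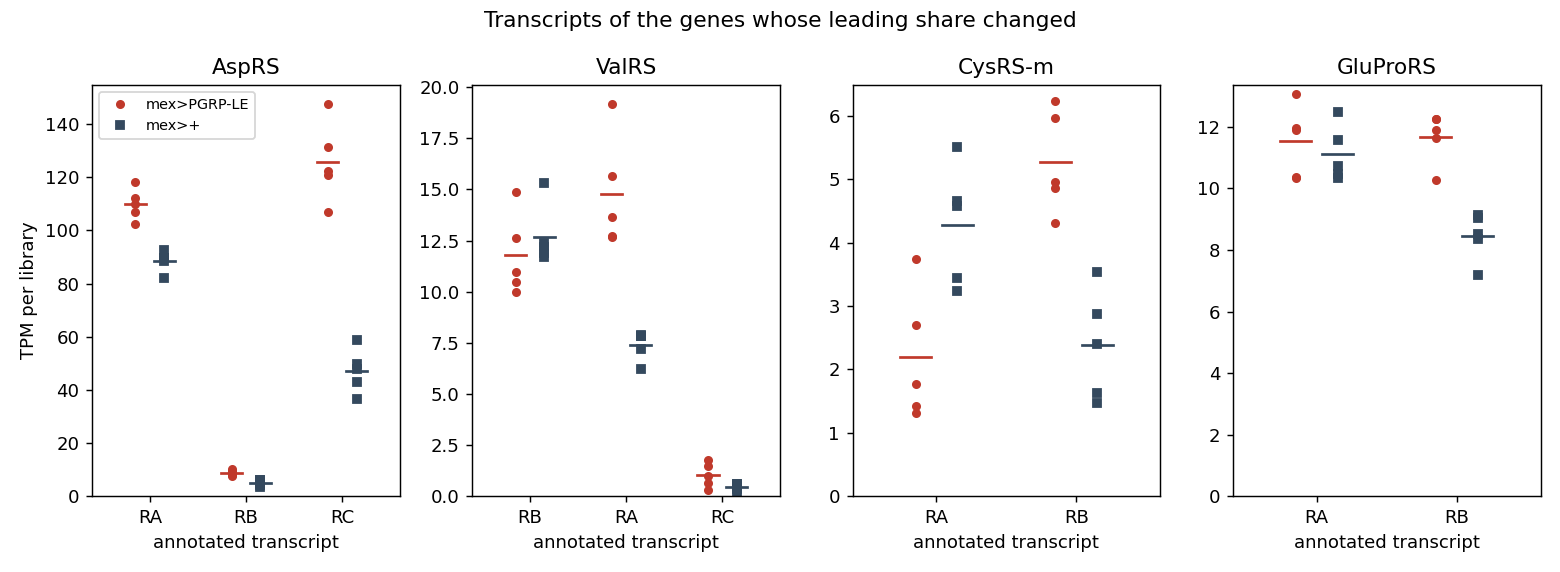
TPM of each annotated transcript of AspRS, ValRS, CysRS-m and GluProRS in every library, with mex>PGRP-LE as red circles left of mex>+ as dark squares, a line at each mean, and a separate linear axis from 0 for each gene. AspRS-RC stands at 107 to 148 TPM in mex>PGRP-LE and 36.7 to 58.9 TPM in mex>+, and ValRS-RB overlaps between the genotypes while ValRS-RA does not.

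Among the other 10 genes tested the leading share did not pass the threshold. IleRS-RD held 57.7% ± 7.30 in mex>PGRP-LE and 67.5% ± 6.02 in mex>+, and HisRS-RA held 87.5% ± 1.69 in mex>PGRP-LE and 84.6% ± 1.97 in mex>+ (exact permutation test, adjusted p = 0.13 for each). For ProRS-m and LeuRS the share varied so much among libraries of 1 genotype that a small difference would not be seen: ProRS-m-RA held 40.7% to 87.8% in mex>PGRP-LE and 63.8% to 89.4% in mex>+, and LeuRS-RA 49.96% to 76.8% in mex>PGRP-LE and 47.05% to 76.04% in mex>+. Other genes with proteins of more than 1 length had overlapping groups: the 1139-codon form of AspRS-m held 16.5% ± 7.17 in mex>PGRP-LE and 19.7% ± 6.10 in mex>+, and the 554-codon form of HisRS 12.3% ± 1.69 in mex>PGRP-LE and 14.8% ± 1.61 in mex>+.

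Of the 35 genes 16 share exon bases with another annotated gene, 15 of them with a gene on the opposite strand. The libraries were stranded per the labels' protocols, but the strand setting used to quantify them was not given in the sources used here, so reads of such partners may not be separated. For AspRS the antisense gene asRNA:CR45141 covers 63.9% of its exon bases and asRNA:CR43468, on the same strand, 6.8%. No transcript row was assigned to either, so neither has a TPM value here. Nmda1, which overlaps 5.6% of AspRS exon bases on the opposite strand, stood at 125 TPM in mex>PGRP-LE and 102 TPM in mex>+. The part of these 3 genes in the AspRS values was not tested. TyrRS and GluRS-m lie next to each other on the minus strand of chromosome arm 3L with 171 bases between them, and TyrRS rose whereas GluRS-m did not pass the test (log2 change 0.10, limma adjusted p = 0.342). Whether the neighbours differ was not tested.

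Transcripts of proteins that work directly with the synthetases were mostly higher. Of 8 such genes tested 7 rose (87.5%, against 40.1% of all genes) and 0 fell (against 22.8%), with a median log2 change of 0.34. AIMP3, whose mammalian counterpart is a scaffold of the multisynthetase complex, averaged 42.7 ± 3.65 TPM in mex>PGRP-LE and 30.4 ± 1.89 TPM in mex>+, a log2 change of 0.48 ± 0.06 (limma SE, adjusted p = 4.49e-05). AIMP1, another scaffold, averaged 26.7 ± 1.69 TPM in mex>PGRP-LE and 20.1 ± 2.21 TPM in mex>+, a log2 change of 0.39 ± 0.07 (limma SE, adjusted p = 5.16e-04). Slimp, a mitochondrial relative of the seryl enzyme in flies that does not charge tRNA, averaged 8.45 ± 0.788 TPM in mex>PGRP-LE and 6.25 ± 0.378 TPM in mex>+, a log2 change of 0.38 ± 0.07 (limma SE, adjusted p = 3.76e-04). Slimp thus rose while SerRS-m, at a log2 change of -0.14, did not. Of the 3 subunits of the amidotransferase that makes mitochondrial glutaminyl-tRNA, GatA and GatC rose, and GatB had a log2 change of 0.10 ± 0.06 (limma SE, adjusted p = 0.196). The Gat genes were chosen for naming after their values were seen.

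Of 26 tested genes listed for tRNA maturation 17 rose (65.4%, against 40.1% of all genes) and 0 fell (against 22.8%), with a median log2 change of 0.26. The list also took in factors of tRNA gene transcription (named after their values were seen). Among them the repressor Maf1 rose, at 0.32 (limma adjusted p = 1.61e-04). Brf and Bdp1 had log2 changes of 0.13 and 0.02 (limma adjusted p = 0.228 and 0.769). La, which binds the ends of new tRNA transcripts, averaged 46.9 ± 5.09 TPM in mex>PGRP-LE and 25.2 ± 3.06 TPM in mex>+, a log2 change of 0.87 ± 0.09 (limma SE, adjusted p = 4.61e-06). Elp2, a subunit of the Elongator complex that modifies the wobble base, averaged 13.3 ± 0.473 TPM in mex>PGRP-LE and 6.86 ± 1.29 TPM in mex>+, a log2 change of 0.88 ± 0.09 (limma SE, adjusted p = 4.66e-06). Trm7-34, a methyltransferase of the anticodon loop, had a log2 change of 0.44 ± 0.06 (limma SE, adjusted p = 4.46e-05).

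Of 10 cytosolic elongation and release factors 4 rose (40.0%, the share of all genes being 40.1%) and 4 fell (all genes 22.8%), with a median log2 change of -0.03. The release factors eRF3 and eRF1 had log2 changes of 0.30 ± 0.04 (limma SE, adjusted p = 4.67e-05) and 0.25 ± 0.04 (limma SE, adjusted p = 1.16e-04), and eEF1delta, a subunit of the exchange factor of eEF1, 0.41 ± 0.06 (limma SE, adjusted p = 6.49e-05). Those that fell were eEF1alpha1, which delivers charged tRNA to the ribosome, its relative eEF1alpha2, the translocase eEF2, and eEF5, which helps stalled ribosomes on, with log2 changes of -0.15, -0.38, -0.15 and -0.12 (limma adjusted p between 0.00299 and 0.0412; these were named after their values were seen). Of 11 genes listed as mitochondrial translation factors 7 rose (63.6%, against 40.1% of all genes) and 1 fell (all genes 22.8%), with a median of 0.31. The list included mTerf3, bsf and mTTF, which are not initiation, elongation, release or recycling factors (named after their values were seen). Of these mTerf3 was the gene that fell, at -0.18 (limma adjusted p = 0.0247). The log2 changes of bsf and mTTF were 0.13 and 0.05 (limma adjusted p = 0.0431 and 0.387). The translocase mEFG1 had a log2 change of 0.51 ± 0.05 (limma SE, adjusted p = 6.46e-06), the exchange factor mEFTs 0.41 ± 0.04 (limma SE, adjusted p = 4.10e-06), and mEFTu1, which carries charged tRNA, 0.31 ± 0.05 (limma SE, adjusted p = 1.46e-04).

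Regulators of the amino acid response and of growth were measured beside the synthetases. In mammals the transcription factor ATF4, whose fly counterpart is encoded by crc, raises many synthetase genes when amino acids are short. Of 29 tested genes 6 rose (20.7%, against 40.1% of all genes) and 7 fell (all genes 22.8%), with a median log2 change of -0.004. The transcription factor foxo averaged 29.9 ± 2.86 TPM in mex>PGRP-LE and 47.3 ± 1.84 TPM in mex>+, a log2 change of -0.65 ± 0.06 (limma SE, adjusted p = 3.23e-06). Thor, the 4E-BP translation inhibitor that both foxo and ATF4 can induce in flies, averaged 690.2 ± 63.0 TPM in mex>PGRP-LE and 1105 ± 116 TPM in mex>+, a log2 change of -0.68 ± 0.08 (limma SE, adjusted p = 1.84e-05). The serine synthesis enzyme aay averaged 52.8 ± 7.19 TPM in mex>PGRP-LE and 87.3 ± 8.09 TPM in mex>+, a log2 change of -0.72 ± 0.09 (limma SE, adjusted p = 2.20e-05). All 3 fell, and a link of any gene in this list to the synthetase changes was not tested. The following were named after their values were seen. The 6 that rose were path, PPP1R15, RagA-B, Ets97D, Nprl3 and RagC-D. Their log2 changes were 0.46, 0.31, 0.31, 0.29, 0.25 and 0.15 (limma adjusted p between 2.94e-05 and 0.0146). Gclc, Sesn and raptor also fell, with log2 changes of -0.85, -0.39 and -0.25 (limma adjusted p between 9.96e-05 and 0.00707). Transcripts of crc stood at 341 ± 14.4 TPM in mex>PGRP-LE and 318 ± 6.87 TPM in mex>+, a log2 change of 0.10 ± 0.04 (limma SE, adjusted p = 0.0543), and those of Gcn2, the kinase that senses uncharged tRNA, fell, with a log2 change of -0.42 ± 0.07 (limma SE, adjusted p = 1.83e-04). Myc had a log2 change of -0.13 ± 0.06 (limma SE, adjusted p = 0.0698) and mTor of -0.13 ± 0.05 (limma SE, adjusted p = 0.0503).

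**Figure D5:**
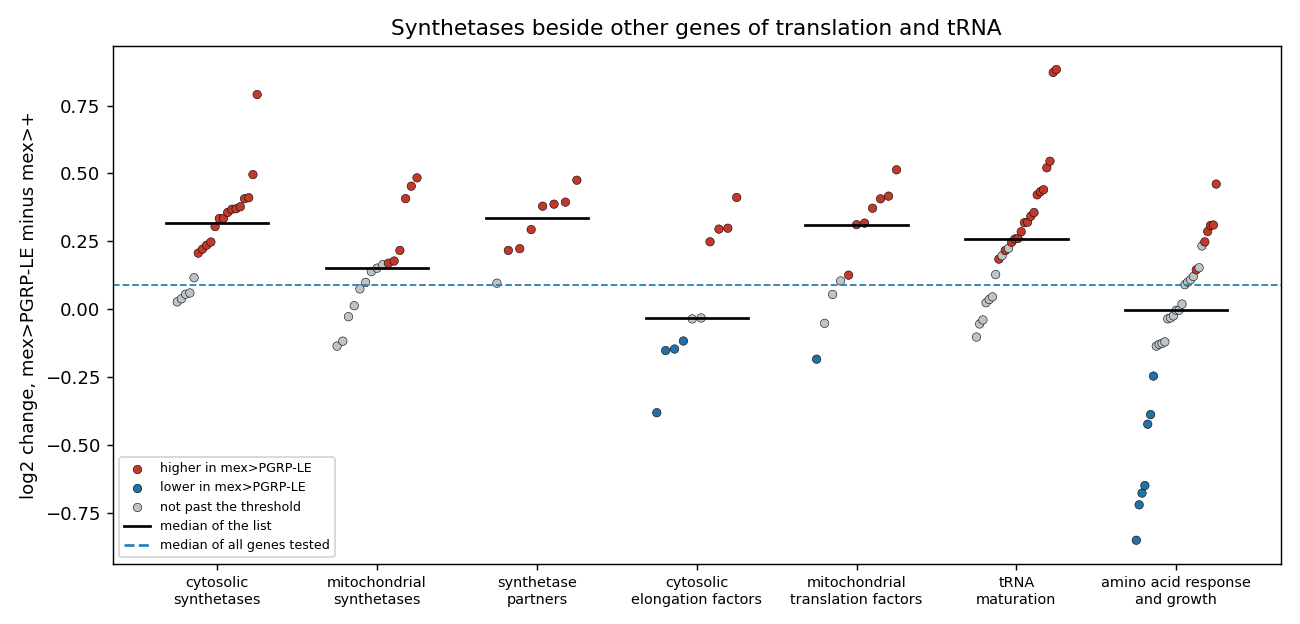
Log2 change of each tested gene in the synthetase groups and in the lists of partners, elongation and release factors, mitochondrial translation factors, tRNA maturation, and amino acid response and growth, ordered by change within each list. Red points rose and blue points fell in mex>PGRP-LE, grey points did not pass the threshold, black lines are list medians and the dashed line is the median of all genes tested. The synthetase partners and the cytosolic synthetases have medians of 0.34 and 0.32, and the cytosolic elongation factors -0.03.

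The authors' deposited table, whose title names RUVSeq, a correction for unwanted variation, gives its own log2 fold change and p-value for all 35 genes. In the authors' deposited table, at a p-value under 0.05, 12 of the 20 cytosolic genes were higher and 0 lower, against 33.0% higher and 22.6% lower over all its genes. The authors' deposited table had 4 of the 15 mitochondrial genes higher, MetRS-m, TyrRS-m, TrpRS-m and ValRS-m, with log2 fold changes of 0.57, 0.49, 0.45 and 0.31. AspRS had a log2 fold change of 0.75 and a p-value of 7.18e-14 in the authors' deposited table. The medians in the authors' deposited table were 0.33 for cytosolic genes, 0.15 for mitochondrial genes and 0.08 for all genes.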

How the data were processed

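PolyA RNA from adult male midguts was sequenced in 5 libraries of mex>PGRP-LE and 5 of mex>+, grouped by the labels. The authors deposited TPM per transcript, whose columns each sum to 1000000 over 31181 rows, of which 92 are ERCC spike-ins. Per the submitters' processing notes, kallisto, FastQC, edgeR and Trim Galore were used with build BDGP6, with no version given. How strand was handled in quantification is unknown from the sources used here. The authors' second table holds their own log2 fold changes with a p-value for each gene, deposited without saying whether it is adjusted. Its title names RUVSeq, a correction for unwanted variation.

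Transcript rows were assigned to genes through Ensembl release 115 (BDGP6.54), also the source of coordinates and coding lengths. Of 31089 transcript rows 31048 matched, and the other 41 held between 0.0325% and 0.044% of the TPM. Rows were summed per gene. A gene was tested if 5 or more of the 10 libraries had 1 TPM or more, and 8722 were. Tests used log2(TPM + 1) in limma 3.58.1 under R 4.3.3 (eBayes, trend and robust options on), two-sided, with p-values adjusted by Benjamini-Hochberg over all tested genes and a threshold of 0.05. No count model was used, since TPM are not counts. The limma step was tested on simulated data. Ratios within an amino acid and leading transcript shares were compared by two-sided exact permutation tests in SciPy 1.17.1, adjusted over the 12 pairs and over the 14 genes. Replicate numbers were not used as pairs.

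The synthetase genes, the other gene lists and the marker lists were chosen with earlier results of these data known. Every synthetase gene is reported, with the 3 genes of smallest p from each other list, and genes named outside this rule are said to be. The list symbols SLIMP, Tor, Dl and NHA1 were matched through RefSeq synonyms. Class and complex membership are textbook knowledge. Alternatives were other pseudocounts, filters, scalings and limma options, a replicate block, and leaving out each library. Protein, promoter and transcript sequences were not used here.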

Additional observations from a re-analysis of the deposited data

Results flagged for a closer look

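In 5 of 126 groups of 5 libraries checked, 1 library lay far from the other 4 of its genotype. Chance alone does this in about 1 of 20 groups.

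IleRS stood at 21.55 TPM in mex>+ replicate 4, against 19.49 to 19.78 TPM in the other mex>+ libraries. ValRS stood at 23.77 TPM in the same library, against 18.92 to 20.3 TPM in the others. The same library was the highest of mex>+ for 17 of the 20 cytosolic genes. Without it the log2 change of ValRS was 0.46 and that of IleRS 0.08.

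The log2 ratio of TrpRS to TrpRS-m was 1.172 in mex>PGRP-LE replicate 2, against 1.346 to 1.414 in the other libraries of that genotype, and 1.249 in mex>+ replicate 5, against 1.404 to 1.453 in the other mex>+ libraries. ArgRS-m-RA held 76.7% of ArgRS-m in mex>+ replicate 1, against 63.57% to 67.37% in the other mex>+ libraries.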

How the results depend on the processing

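Under 20 alternatives, 11 cytosolic genes rose in each (alpha-PheRS, ArgRS, AsnRS, AspRS, GlyRS, LeuRS, LysRS, MetRS, ThrRS, TrpRS and ValRS), whereas beta-PheRS, GluProRS, SerRS and TyrRS lost the call in at least 1. TrpRS-m and TyrRS-m rose in all 20, and MetRS-m in the 19 that could test it, since a mean of at least 5 TPM removed GluRS-m, IleRS-m, MetRS-m and ValRS-m. Median-of-ratios rescaling gave medians of 0.22 for cytosolic and 0.060 for mitochondrial genes, with 3 mitochondrial genes higher and 3 lower. Quantile normalization gave 3 higher and 2 lower, and rescaling to the spike-ins 3 higher. Over single genes 636 comparisons with an alternative kept direction and side of the threshold, 27 lost the call, 15 gained one, and 18, all of genes past the threshold in neither, changed sign. Median-of-ratios rescaling gave log2 changes of -0.063 for AlaRS, -0.072 for CysRS, -0.040 for GlnRS, -0.0445 for IleRS, -0.067 for IleRS-m and -0.017 for LeuRS-m, quantile normalization -0.036 for AlaRS, -0.027 for CysRS, -0.0033 for IleRS and -0.0445 for IleRS-m, rescaling to the spike-ins -0.0011 for IleRS-m and array weights -0.021 for IleRS-m. With a pseudocount of 5 the tryptophan pair stood at 0.023. For these losses the cause was not tested.

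With the replicate number as a block 3 mitochondrial and 15 cytosolic genes rose. Whether the numbers pair the libraries is not given by the labels, and the correlations cannot decide it. Correlations of same-numbered libraries were -0.173, 0.57, -0.233, 0.065 and -0.056, and only replicate 2 correlated best with its own number. A sign-flip test over the 5 numbered pairs cannot go below 0.0625, so 0 amino acid pairs passed under the block. With a pseudocount of 5, 6 pairs shifted towards the cytosolic enzyme, and with 0.1 the asparagine pair was lost (exact permutation test, adjusted p = 0.0762).

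Leaving out each library gave 5171 to 5446 genes called in all (3257 to 3556 higher, 1834 to 2044 lower), 15 to 16 cytosolic genes higher and 0 lower with a median of 0.29 to 0.35, and 4 to 7 mitochondrial genes higher with 0 to 1 lower and a median of 0.11 to 0.17. The 1 lower was SerRS-m without mex>PGRP-LE replicate 3. Pairs shifted towards the cytosolic enzyme numbered 0 to 5 and towards the mitochondrial enzyme 0 to 1 (tyrosine, without mex>+ replicate 3), and genes whose leading share changed 0 to 5. Over the same 10 fits log2 changes ran from -0.0076 to 0.083 for AlaRS, -0.00096 to 0.072 for CysRS, -0.018 to 0.046 for IleRS-m and -0.056 to 0.00026 for PheRS-m, and differences in leading share, in percentage points, from -0.34 to 1.17 for AlaRS, -4.34 to 1.48 for AspRS-m, -2.90 to 4.59 for LeuRS, -5.15 to 6.62 for ProRS-m and -0.51 to 3.23 for SerRS-m. With 4 against 5 the smallest exact p is 0.0159, so fewer than 4 pairs at that p cannot pass the adjustment. TPM give no depth, so precision at low levels, as for ValRS-m, cannot be stated.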
